A study of Saccharomyces cerevisiae with 18 samples.

Results

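The 31 genes described here encode pyruvate dehydrogenase, the tricarboxylic acid cycle without succinate dehydrogenase, the glyoxylate and methylcitrate cycles, and the enzymes that feed oxaloacetate and acetyl-CoA into these cycles or lead from them to glucose. They were chosen by name for their place in these pathways, not by a threshold on a measured value but with earlier results of these data known, and all 31 were found among the 6713 open reading frames of the count tables. All 31 passed the filter on low counts in RNA-Seq, where 5966 genes were tested, and in the test of translation efficiency, where 5935 were tested. In Ribo-Seq 29 of the 31 passed among 5369 genes. IDP2, with 0 to 21 footprint counts per library, and FBP1, with 0 to 5, did not.

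RNA-Seq of poly(A)-selected RNA and Ribo-Seq, the sequencing of mRNA fragments protected by ribosomes (footprints), were performed on the same 9 lysates of *Saccharomyces cerevisiae*, which gave 18 libraries. The wild type (wt) was BY4741, MATa his3Δ1 leu2Δ0 met15Δ0 ura3Δ0, and all strains shared these alleles. Δtma20 carried tma20Δ:KanMX4, Δtma64 carried tma64Δ:KanMX4, and ΔΔtma20tma64 carried tma64Δ:HygMX4 and tma20Δ:KanMX4. Each strain was grown to exponential phase in rich YPD or minimal SD medium, both with glucose, and was exposed to cycloheximide, which arrests ribosomes, shortly before harvest. There were 2 wt lysates in YPD (WT1 and WT2) and 1 lysate for every other strain and medium. The mutants thus had no replicate within a medium, and p-values measure the spread between lysates of different strains and media. The study's methods name a complete amino acid supplement for SD and the sample labels name none, so which amino acids the SD cultures received is uncertain. TMA20 and TMA64 are the yeast counterparts of mammalian MCT-1 and eIF2D, factors that act in the recycling of ribosomal subunits and in re-initiation.

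Counts on open reading frames ranged from 5608491 to 11388027 per library in RNA-Seq and from 1668588 to 23532664 in Ribo-Seq. The 2 shallowest Ribo-Seq libraries were both from SD, those of Δtma20 and wt. TMA20 had 879 to 1654 RNA-Seq counts where it was present and 0 to 16 where it was deleted, and TMA64 had 533 to 978 and 0 to 7. The a-cell gene STE2 was at 395 to 755 CPM in RNA-Seq, the alpha-factor genes had at most 15 counts, and LEU2, URA3 and MET17 had at most 2. HIS3, of which his3Δ1 removes only a part, was at 158 to 272 CPM.

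Pyruvate dehydrogenase turns pyruvate into acetyl-CoA in the mitochondrial matrix, and the tricarboxylic acid cycle oxidizes the acetyl group while it supplies alpha-ketoglutarate and oxaloacetate for amino acid synthesis. The glyoxylate cycle bypasses the decarboxylating steps, so that cells can build sugars from acetate or ethanol, and the methylcitrate cycle disposes of propionyl-CoA. In yeast grown on glucose, the genes of the glyoxylate cycle and of gluconeogenesis are known to be repressed, and pyruvate carboxylase then replenishes oxaloacetate.

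Several members are isoenzymes of different compartments. CIT1 and CIT3 encode mitochondrial and CIT2 peroxisomal citrate synthase, and MDH1, MDH2 and MDH3 encode mitochondrial, cytosolic and peroxisomal malate dehydrogenase. Peroxisomal import of many proteins is known to read the last residues, and the last 30 coding bases are shown for these 2 families because a peroxisomal address of this kind lies there. The address of mitochondrial proteins usually lies at the other end and is not shown. The bases are from the RefSeq annotation of the R64 genome, and capitals mark the last 3 sense codons.
CIT1: ttggtaaagaaaatcgaaAGTAAGAACtaa
CIT2: ttggtcaaaaacattgaaAGCAAACTAtag
CIT3: accaaagcaagcaatgttAACAAGTTGtaa
MDH1: aagggtgtcaactttgttGCTAGTAAAtag
MDH2: ttcgttgcatcgagatctGCATCATCTtaa
MDH3: agtttcatcctagactctTCCAAGCTAtga
These lie at chrXIV:629622-629651 (minus strand), chrIII:120946-120975 (minus), chrXVI:557808-557837 (plus), chrXI:280098-280127 (plus), chrXV:81787-81816 (minus) and chrIV:315357-315386 (minus). Within a family the coding sequences were similar but distinct in footprint-sized windows. CIT1 and CIT2 were identical at 74.6% of aligned bases and MDH1 and MDH2 at 67.7%, and every 28 nt window of these genes was unique in the genome. The exception among the 31 members was the pair of pyruvate carboxylase genes. PYC1 and PYC2 were identical at 85.5% of aligned bases, and 86.0% of the 28 nt windows of each were unique (85.95% and 85.98%), so their counts leave out reads common to both and their levels are uncertain.

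The genes on which most results turn lie apart in the R64 genome, except PDH1 and CIT3. These are PYC1 (YGL062W, chrVII:385196-388732, plus strand), PDH1 (YPR002W, chrXVI:558385-559935, plus), CIT3 (YPR001W, chrXVI:556377-557837, plus), CIT1 (YNR001C, chrXIV:629622-631061, minus), CIT2 (YCR005C, chrIII:120946-122328, minus), IDH1 (YNL037C, chrXIV:557920-559002, minus), MDH2 (YOL126C, chrXV:81787-82920, minus) and ACS1 (YAL054C, chrI:42881-45022, minus). Each of the 31 members is a single coding exon that overlaps no other open reading frame, and CIT3 and PDH1 are neighbours on the same strand.

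The carbon source response element (CSRE), read by the regulators Cat8 and Sip4, is known from genes of gluconeogenesis and the glyoxylate cycle. The letters CCNT, any 4 bases and CCG were searched on both strands in the 500 bases before the start codon. They were found in 8 of 31 members (25.8%) and in 7.05% of 6011 open reading frames. The members were ICL1, MLS1, PCK1, ACS1, MDH2, MDH3, IDH1 and KGD1. The matches of 4 genes of acetate use and gluconeogenesis are shown in capitals, since their mRNA and footprint levels are compared below.
ICL1: cccaggtttCCATTCATCCGagcgatcact
PCK1: accgagcttCCTTTCATCCGgcgcggctgt
ACS1: gtgactgctCCATTTCGCCGgatgtcgaga
MDH2: gatacggccCCTTTAATCCGcaattacttt
They lie at chrV:287292-287321 (minus strand), chrXI:630662-630691 (plus), chrI:45373-45402 (minus) and chrXV:83300-83329 (minus), and start 398, 481, 371 and 400 bases before the start codon. CIT2 is the classic target of the retrograde pathway, in which Rtg1 and Rtg3 bind the R box. The letters GTCAC were searched in the same windows on both strands and were found in 17 of 31 members (54.8%) and 42.3% of open reading frames. The first and second of the 3 matches before CIT2 are shown, the match in capitals as it reads on the strand of the gene.
CIT2, 345 bases before the start codon: aggggcgaagagGTCACgacctattttttc
CIT2, 312 bases before the start codon: cagaaaaaaagtGTGACcttttccgtagct
They lie at chrIII:122656-122685 and chrIII:122623-122652 (minus strand). The remaining match before CIT2, at 196 bases, overlaps a match of CCAAT, the letters read by the Hap complex. CCAAT was found before 28 of 31 members (90.3%) and 62.4% of open reading frames, and TGACTC, read by Gcn4, before 9 of 31 (29.03%) and 12.6%. A match of letters is a description of these windows and does not show that a factor binds.

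The members differed widely in level, and mRNA and footprints did not give the same order. Levels per coding length are given as TPM, the counts of a gene divided by its coding length and scaled to the same sum in every library of an assay, and translation efficiency is the ratio of footprint to mRNA CPM in a lysate. CIT2 had the highest mRNA of the 31 members, 1115 ± 140.2 TPM in YPD (mean ± SD over 5 lysates), but its footprints were at 182 ± 41.3 TPM. CIT1 had 172 ± 19.6 TPM of mRNA and 169 ± 32.9 TPM of footprints in YPD, so that both genes were alike in footprints within the spread between lysates. The efficiency of CIT2 was 0.154 ± 0.0211 in YPD and that of CIT1 0.933 ± 0.162. CIT3, which makes citrate and methylcitrate, stood far below both with 5.70 ± 1.33 TPM of mRNA and 1.04 ± 0.209 TPM of footprints.

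**Figure D1:**
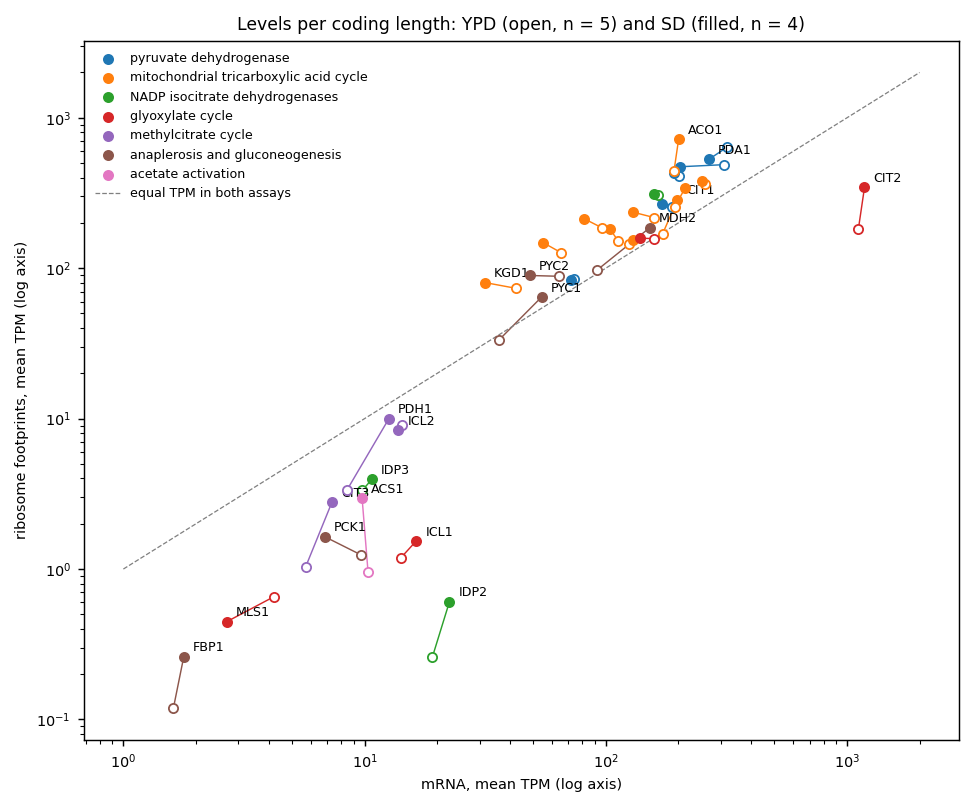
Mean mRNA level (x axis, TPM, log scale) against mean footprint level (y axis, TPM, log scale) of the 31 members, with open circles for YPD (5 lysates), filled circles for SD (4 lysates), lines joining both media and colours for the roles. CIT2 lies far to the right of the other members at 1115 TPM of mRNA in YPD, IDP2 far below the line of equal levels, and ACS1, PDH1 and CIT3 are joined by steep lines.

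Among the dehydrogenases of isocitrate with NADP, mitochondrial IDP1 was at 164 ± 17.1 TPM of mRNA and 307 ± 22.2 TPM of footprints in YPD. Cytosolic IDP2 had more mRNA than peroxisomal IDP3 (19.1 ± 2.43 against 9.80 ± 1.17 TPM) and fewer footprints (0.261 ± 0.238 against 3.35 ± 0.730 TPM). IDP2 thus had the lowest efficiency among the members in YPD, 0.0133 ± 0.0120. ICL1, the isocitrate lyase of the glyoxylate cycle, and ICL2, the methylisocitrate lyase of the mitochondrial methylcitrate cycle, had nearly the same mRNA level, 14.2 ± 1.28 and 14.3 ± 2.16 TPM. Their footprints were at 1.19 ± 0.238 and 9.08 ± 1.27 TPM. The genes of the glyoxylate cycle and gluconeogenesis that glucose represses had few footprints. In YPD these were 0.655 ± 0.280 TPM for malate synthase MLS1, 1.24 ± 0.549 TPM for phosphoenolpyruvate carboxykinase PCK1 and 0.120 ± 0.108 TPM for fructose bisphosphatase FBP1. ACO1, aconitase, stood at the other end, with an efficiency of 2.17 ± 0.448 in YPD and 3.13 ± 0.0685 in SD. PDA1, the alpha subunit of pyruvate dehydrogenase, had the most footprints in YPD, 639 ± 18.9 TPM.

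Growth in SD was compared with growth in YPD over 4 and 5 lysates, with strain in the model. In mRNA, PYC1, a pyruvate carboxylase, MDH2, the cytosolic malate dehydrogenase, and PDH1, a methylcitrate dehydratase, were higher in SD. PDB1, the beta subunit of pyruvate dehydrogenase, PYC2, KGD1 and KGD2 of alpha-ketoglutarate dehydrogenase and LSC1, a subunit of succinyl-CoA ligase, were lower. In all, 3 of 31 members were higher and 5 lower by edgeR at an adjusted p under 0.05, and 23 did not pass. Over all genes tested 26% passed, 14.1% higher and 11.9% lower, so the members passed at about the share of all genes. The median log2 fold change of the members was -0.0021, and 0.0040 over all genes.

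PYC1 mRNA was at 172, 155, 171, 183 and 171 CPM in YPD in WT1, WT2, Δtma64, Δtma20 and ΔΔtma20tma64. In SD it was at 289, 265, 259.8 and 234 CPM in wt, Δtma64, Δtma20 and ΔΔtma20tma64. Every SD lysate lay above every YPD lysate, and the log2 fold change was 0.62 (SE 0.0840, adjusted p = 0.000659, edgeR). PYC2, the isoenzyme, moved the other way, from 282 to 340.0 CPM in YPD to 214 to 250.4 CPM in SD, again with no overlap (log2 fold change -0.37, SE 0.0844, adjusted p = 0.0106, edgeR). Per length, PYC2 mRNA exceeded PYC1 mRNA in YPD (63.9 ± 1.84 against 35.9 ± 2.36 TPM), and in SD the levels were 48.6 ± 3.74 and 54.2 ± 5.68 TPM.

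MDH2 mRNA in YPD was at 93.8 CPM in WT1, 139 in WT2, 209.9 in Δtma64, 126 in Δtma20 and 122 in ΔΔtma20tma64. In SD it was at 269 CPM in wt, 228 in Δtma64, 264.5 in Δtma20 and 179 in ΔΔtma20tma64. The ranges overlapped, because Δtma64 in YPD lay above ΔΔtma20tma64 in SD, while every strain was at a higher level in SD than in YPD. The log2 fold change was 0.78 (SE 0.172, adjusted p = 0.00939, edgeR). MDH2 did not pass when the wt lysate in SD was left out (adjusted p = 0.0514, edgeR, the highest of 16 alternatives). PDB1 mRNA fell by 0.58 on the log2 scale (SE 0.109, adjusted p = 0.00402, edgeR), from 416 to 538 CPM in YPD to 264 to 332 CPM in SD with no overlap. The changes of PDH1 (0.58) and of KGD1 (-0.40), LSC1 (-0.26) and KGD2 (-0.24) were the least firm, as each kept its call in only 1 to 3 of the 9 fits that left out 1 lysate.

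In footprints the change was broader and mostly upward: 9 of 29 members tested were higher in SD, 1 was lower and 19 did not pass, against 25.5% of all genes that passed, 14.3% higher and 11.3% lower. Those higher were PDH1 and CIT3 of the methylcitrate cycle, ACS1, which makes acetyl-CoA from acetate, and PYC1 and MDH2 of oxaloacetate supply. CIT2 of the glyoxylate cycle and CIT1, ACO1 and IDH1 of the mitochondrial cycle were higher as well. The lysates of both media overlapped for PDH1, CIT3, CIT2, ACO1 and IDH1. PDH1 rose by 1.58 on the log2 scale (adjusted p = 1.94e-05, edgeR), from 2.92 to 10.7 CPM in YPD to 8.19 to 29.9 CPM in SD. Each strain had more PDH1 footprints in SD than in YPD. IDH1 encodes only a subunit of its enzyme, and IDH2, the partner subunit, did not pass. PDA1 was lower. All 10 members of the mitochondrial cycle had a positive log2 fold change, from 0.03 to 0.72, but 7 of them did not pass. The sign was not shared by every strain. Within wt the SD to YPD ratio was under 1 for IDH2 (0.765), KGD1 (0.947), LSC1 (0.957), FUM1 (0.9575) and MDH1 (0.914). It was above 1 in wt for CIT1, ACO1, IDH1, KGD2 and LSC2, and in ΔΔtma20tma64 for all 10. All 5 members of pyruvate dehydrogenase had a negative value, from -0.37 to -0.01, and 4 did not pass. Here too the sign was not shared by every strain. The ratio was above 1 for LAT1 (1.008 in wt, 1.031 in Δtma20) and LPD1 (1.046 in wt, 1.026 in Δtma20). The median of the members was 0.0717 on the log2 scale, and -0.0047 over all genes.

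**Figure D2:**
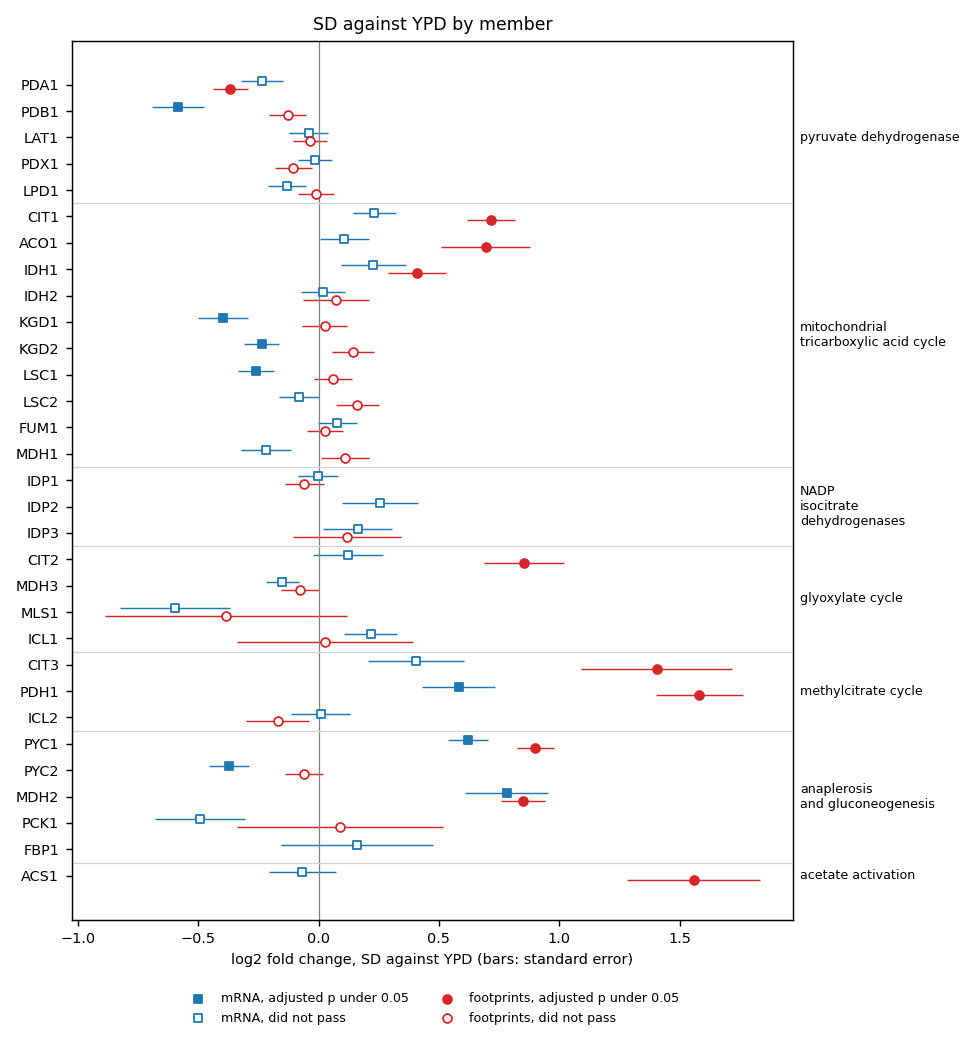
log2 fold change of SD against YPD (x axis) for each member (y axis, grouped by role), with blue squares for mRNA and red circles for footprints, filled where the adjusted p was under 0.05, and bars for the standard error. Red points lie to the right of blue ones for CIT1, ACO1, CIT2, CIT3, PDH1 and ACS1, and the footprints of ACS1 stand at 1.56 while its mRNA is at -0.07.

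ACS1 had the largest separation of footprints from mRNA. In YPD it had 3.31, 2.25, 2.43, 2.26 and 2.72 CPM of footprints in WT1, WT2, Δtma64, Δtma20 and ΔΔtma20tma64. In SD it had 12.3, 6.62, 6.43 and 5.24 CPM in wt, Δtma64, Δtma20 and ΔΔtma20tma64. All SD lysates lay above all YPD lysates, and wt in SD was the highest. These values rest on 11 to 137 counts per library. ACS1 footprints were higher by 1.56 on the log2 scale (SE 0.277, adjusted p = 0.00101, edgeR), and its mRNA, 25.3 to 33.7 CPM in YPD and 24.1 to 33.6 CPM in SD, gave -0.07 (SE 0.139, adjusted p = 0.756, edgeR). The efficiency of ACS1 was 0.0718 to 0.0980 in YPD and 0.156 to 0.441 in SD, with no overlap (p = 0.0159 by an exact permutation test, two-sided, which is the smallest p that 4 against 5 lysates can give). The opposite strand of ACS1, treated below, held 33.2% of the RNA-Seq reads on both strands, and the counts used here are those of the strand of the gene.

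All 3 citrate synthases were higher in footprints. For CIT1 the footprints in YPD were at 314 CPM in WT1, 399 in WT2, 335 in Δtma64, 262 in Δtma20 and 238 in ΔΔtma20tma64. In SD they were at 536 CPM in wt, 484 in Δtma64, 436 in Δtma20 and 493 in ΔΔtma20tma64. The media did not overlap, and the log2 fold change was 0.72 (SE 0.0994, adjusted p = 0.000124, edgeR). CIT1 mRNA was also above YPD in every SD lysate, 368 to 441 against 310.4 to 348 CPM, but its log2 fold change of 0.23 did not pass (adjusted p = 0.0802, edgeR).

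CIT2 footprints in YPD were at 434, 329, 312, 217 and 314 CPM in WT1, WT2, Δtma64, Δtma20 and ΔΔtma20tma64. In SD they were at 700.1 CPM in wt, 764.5 in Δtma64, 448 in Δtma20 and 358 in ΔΔtma20tma64. The lysates with TMA20 in SD stood apart at the top, and ΔΔtma20tma64 in SD lay within the YPD range. CIT2 rose by 0.85 on the log2 scale (SE 0.166, adjusted p = 0.00662, edgeR), a call that was lost without the wt lysate in SD (adjusted p = 0.147) and without the 2 shallowest lysates (0.435), an alternative chosen after seeing the data, the bottom and top of the range over 17 alternatives being 5.15e-08 and 0.435. CIT2 mRNA gave 0.12 (adjusted p = 0.579, edgeR). CIT3 rose by 1.40 in footprints (SE 0.314, adjusted p = 0.00506, edgeR), but on only 7 to 19 counts per library in YPD and 6 to 66 in SD, and without the wt lysate in SD it did not pass (adjusted p = 0.0523, with a range of 0.00248 to 0.0972 over 17 alternatives).

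PYC1 and MDH2 were higher in footprints as in mRNA, by 0.90 (SE 0.0750, adjusted p = 7.21e-07, edgeR) and 0.85 (SE 0.0906, adjusted p = 8.99e-06, edgeR). PYC1 footprints were at 168, 169.5, 164.5, 128.5 and 115 CPM in YPD in WT1, WT2, Δtma64, Δtma20 and ΔΔtma20tma64, and at 302, 335, 236 and 211 CPM in SD in wt, Δtma64, Δtma20 and ΔΔtma20tma64. MDH2 footprints were at 119 to 161 CPM in YPD and 242 to 258 CPM in SD. Neither gene had an overlap between the media. With footprints of MDH2 at 186 ± 12.3 TPM in SD against 97.0 ± 11.3 TPM in YPD, the cytosolic enzyme came to the level of mitochondrial MDH1 (213 ± 36.6 TPM in SD) within the spread between lysates. Peroxisomal MDH3 was at 157 ± 7.88 TPM in YPD and 158 ± 14.8 TPM in SD. PYC2 footprints gave -0.06 (adjusted p = 0.606, edgeR).

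ACO1 (0.69) and IDH1 (0.41), a subunit of the NAD-dependent isocitrate dehydrogenase, passed with adjusted p of 0.0327 and 0.0281 by edgeR. ACO1 kept its call in 4 and IDH1 in 2 of the 9 fits that left out 1 lysate. Within strains, the SD to YPD ratio of ACO1 footprints was 1.24 in wt, 1.49 in Δtma64, 2.445 in Δtma20 and 1.65 in ΔΔtma20tma64. That of IDH1 was 1.06 in wt, 1.26 in Δtma64, 1.85 in Δtma20 and 1.36 in ΔΔtma20tma64. For IDH1 the wt strain thus showed the smallest ratio, and in a comparison of the wt lysates alone, chosen after seeing the data, it gave 0.09 (adjusted p = 0.707, edgeR, the highest of 17 alternatives that ranged from 0.00368). IDH2, the partner subunit, gave 0.07 in footprints (adjusted p = 0.745, edgeR). PDA1 footprints lay at 984 to 1099 CPM in YPD and 768 to 813 CPM in SD with no overlap (log2 fold change -0.37, SE 0.0719, adjusted p = 0.00207, edgeR), but did not pass without the 2 shallowest lysates (adjusted p = 0.0558, the highest of 17 alternatives that began at 0.00012).

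MLS1, ICL1, PCK1, ICL2, MDH1, MDH3, IDP1 and IDP3 did not pass in mRNA or footprints. MLS1 gave a log2 fold change of -0.60 in mRNA (SE 0.229, adjusted p = 0.0812, edgeR) and -0.39 in footprints (SE 0.504) on 1 to 22 footprint counts. PCK1 gave -0.49 in mRNA (adjusted p = 0.0772, edgeR) and 0.09 in footprints (SE 0.429) on 7 to 50 counts, and ICL1 gave 0.22 and 0.03 (SE 0.366) on 5 to 51 counts. At these counts a footprint change of the size seen for mRNA was not detectable. FBP1 and IDP2, tested in mRNA only, gave 0.16 and 0.26. ICL2 gave 0.01 in mRNA and -0.17 in footprints, MDH1 -0.22 and 0.11, MDH3 -0.15 and -0.08, and IDP3 0.16 and 0.12.

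Per-length sums over each role restate the same counts as levels and add no separate evidence. Footprints on the 10 genes of the mitochondrial cycle summed to 2134 ± 404 TPM in YPD and 2736 ± 177 TPM in SD, while their mRNA summed to 1415 ± 166 and 1393 ± 92.4 TPM. The lysates overlapped in this footprint sum, with 1681 to 2624 TPM in YPD and 2574 to 2979 TPM in SD. ACO1 alone was at 446 ± 149 TPM of footprints in YPD and 718 ± 98.0 TPM in SD. Footprints on the 5 genes of anaplerosis and gluconeogenesis summed to 219.8 ± 13.6 TPM in YPD and 341 ± 11.8 TPM in SD. Footprints of pyruvate dehydrogenase summed to 1880 ± 41.7 and 1777 ± 38.6 TPM. These sums over genes of unlike levels are a description, as TPM are shares of a library and fewer cells in a state and less RNA per cell cannot be told apart in them.

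Translation efficiency, tested as the difference between the assays over all 18 libraries, was higher in SD for 4 of 31 members and lower for none, against 7.45% of all genes that passed, 5.04% higher and 2.41% lower. The 4 were ACS1 (log2 1.64, SE 0.294, adjusted p = 0.00245, edgeR), PDH1 (1.00, SE 0.244, adjusted p = 0.0177), CIT1 (0.49, SE 0.142, adjusted p = 0.0428) and PDB1 (0.47, SE 0.134, adjusted p = 0.0422). For PDB1 the footprints gave -0.13 and the mRNA was lower. The log2 difference was positive in 24 of 31 members, with a median of 0.289 against 0.0282 over all genes, and the other 27 members did not pass.
With the lysate as a replicate block, which takes account of the origin of both libraries from the same lysate, 8 members passed, all higher in SD: ACS1, PDH1, CIT1, PDB1, CIT2, KGD1, KGD2 and ACO1. With the same block 10.6% of all genes passed. For CIT2 the block gave 0.74 with an adjusted p of 0.00044 by edgeR, and without it 0.74 with 0.0784, the efficiency being 0.131 to 0.178 in YPD and 0.187 to 0.313 in SD. For ACO1 it was 1.69 to 2.84 in YPD and 3.04 to 3.19 in SD, and neither gene had an overlap between the media. When each lysate was left out in turn, ACS1 kept its call in 9 of 9 fits, PDH1 and CIT1 in 2 and PDB1 in 1, and with RLE scaling CIT1 and PDB1 did not pass. Without the 2 shallowest lysates no member passed, ACS1 included (adjusted p = 0.211 by edgeR, the highest of 18 alternatives that began at 3.03e-05). This alternative was chosen after seeing the data.

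The loss of TMA20 was compared over the 4 lysates of Δtma20 and ΔΔtma20tma64 and the 5 lysates of wt and Δtma64, with medium and loss of TMA64 in the model. Both these and the comparison of media use the same 9 lysates of an assay, so their values are set side by side only. In footprints 4 of 29 members were lower and none was higher, against 3.95% of all genes that passed, 2.37% lower and 1.58% higher. They were PDH1 of the methylcitrate cycle, PYC1, IDH1 and CIT2, and the remaining 25 did not pass. The log2 fold change was negative in 25 of 29 members, with a median of -0.123 against -0.0040 over all genes. In mRNA no member passed by edgeR at an adjusted p under 0.05, where 0.0838% of genes passed, 0.0503% higher and 0.0335% lower. There 6 of 31 members had an unadjusted p under 0.05, against 10.1% of all genes, and DESeq2 called 1, IDH2, and 0.872% of all genes.

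**Figure D3:**
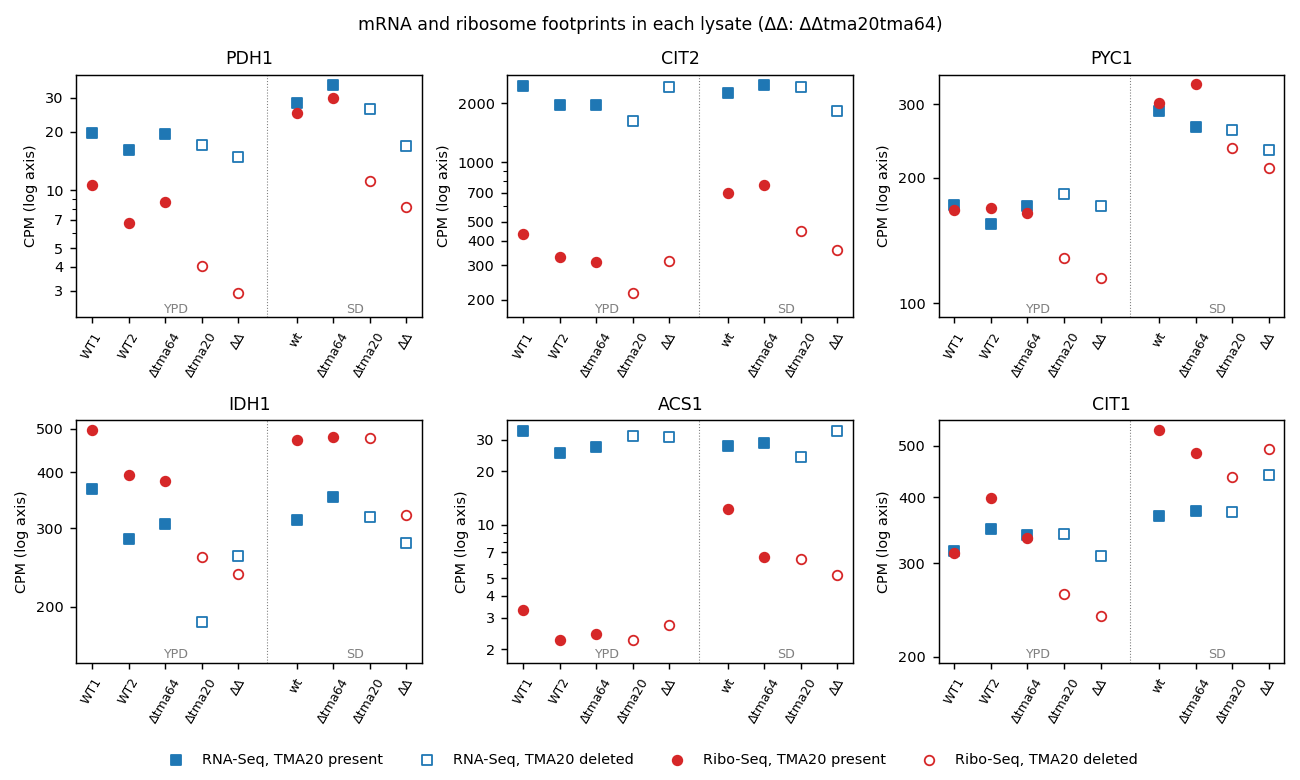
RNA-Seq (blue squares) and Ribo-Seq (red circles) CPM on log axes in each of the 9 lysates (x axis) for 6 members, open where TMA20 was deleted and filled where it was present. Within each medium the open red circles of PDH1 and PYC1 lie below all filled ones, and the footprints of ACS1 in SD lie above all those in YPD while its mRNA does not move.

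PDH1 footprints were at 10.7, 6.73 and 8.69 CPM in YPD in WT1, WT2 and Δtma64, and at 4.05 and 2.92 CPM in Δtma20 and ΔΔtma20tma64. In SD they were at 24.99 and 29.9 CPM in wt and Δtma64, and at 11.1 and 8.19 CPM in Δtma20 and ΔΔtma20tma64. Within each medium both lysates without TMA20 lay below all those with it, at a ratio of means of 0.400 in YPD and 0.352 in SD. Across the media the ranges overlapped. The log2 fold change was -1.50 (SE 0.193, adjusted p = 0.00185, edgeR) on 15 to 393 counts per library, and the call held in all 9 fits that left out 1 lysate. PDH1 mRNA was at 16.2 to 19.8 CPM with TMA20 and 17.2 and 14.9 CPM without it in YPD. In SD it was at 28.3 and 35.1 CPM with TMA20 and 26.3 and 17.0 CPM without it. Its log2 fold change of -0.38 did not pass (adjusted p = 0.496, edgeR). In the SD lysates alone, with no replicate of a strain, it was -0.58 and passed as lower.

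PYC1 footprints, whose values by lysate are given above, were lower without TMA20 in both media, at a ratio of means of 0.728 in YPD and 0.700 in SD. The log2 fold change was -0.48 (SE 0.0814, adjusted p = 0.00659, edgeR) and its mRNA gave -0.02 (adjusted p = 0.943). The efficiency of PYC1 was 0.974, 1.10, 0.963, 1.05 and 1.26 in WT1, WT2, Δtma64 in YPD, wt in SD and Δtma64 in SD, and 0.703, 0.672, 0.907 and 0.902 in the lysates without TMA20, in the order Δtma20 and ΔΔtma20tma64 in YPD and then in SD. These groups did not overlap over the 9 lysates. The exact permutation test then gives its smallest p, 0.0159, unadjusted and with no account of medium or TMA64. PYC1 had already been called in footprints of the same lysates, so this p is a description. By edgeR the efficiency of PYC1 did not pass (adjusted p = 0.2097). PYC2 footprints gave -0.03 (adjusted p = 0.888, edgeR). PDH1 and PYC1 each lost the call in the YPD lysates alone (adjusted p of 0.0835 and 0.107 by edgeR, each the highest of 17 alternatives).

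IDH1 footprints fell by 0.53 on the log2 scale (SE 0.120, adjusted p = 0.0278, edgeR). In YPD they were at 497, 395 and 382 CPM in WT1, WT2 and Δtma64, and at 258 and 237 CPM in Δtma20 and ΔΔtma20tma64. In SD they were at 472 and 481 CPM in wt and Δtma64, and at 477 and 321 CPM in Δtma20 and ΔΔtma20tma64. The separation was thus complete in YPD, while in SD Δtma20 lay between the lysates with TMA20. The SD lysates alone gave an adjusted p of 0.235, the highest of 17 alternatives that began at 0.00207, and the YPD lysates alone 0.0218. IDH1 mRNA gave -0.36 (adjusted p = 0.400, edgeR), with 284 to 368 CPM in the YPD lysates with TMA20 and 185 and 260.3 CPM in those without.

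CIT2 showed the reverse order of media. Its footprints fell by 0.64 on the log2 scale (SE 0.154, adjusted p = 0.0471, edgeR), at a ratio of means of 0.742 in YPD and 0.550 in SD. The YPD lysates alone gave an adjusted p of 0.400 by edgeR, the highest of 17 alternatives. The SD lysates alone gave a log2 fold change of -0.87. That fit had 1 lysate of each strain, so its p-value is not given. CIT2 kept the call in only 3 of the 9 fits that left out 1 lysate, and IDH1 in 4. CIT2 mRNA was at 1953 to 2474 CPM with TMA20 and 1632 to 2405 CPM without it, and gave -0.11 (adjusted p = 0.843, edgeR). The effect of TMA20 loss on footprints was not shown to differ between the media for IDH1 (interaction 0.45, adjusted p = 0.893, edgeR) or CIT2 (-0.44, adjusted p = 0.998, edgeR).

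Next in line in the mitochondrial cycle were IDH2 (-0.47, adjusted p = 0.0713), FUM1, the fumarase (-0.26, adjusted p = 0.0740), ACO1 (-0.57, adjusted p = 0.0898), LSC1 (-0.26, adjusted p = 0.0898) and CIT1 (-0.31, adjusted p = 0.101), none of which passed by edgeR. With IDH1 these made 6 of 10 members of the cycle at an unadjusted p under 0.05, against 18.6% of all genes. DESeq2 called 8 members lower, those of edgeR and IDH2, FUM1, ACO1 and LSC1, and 5.57% of all genes in either direction. LSC1 footprints were at 289 to 306 CPM with TMA20 and 230.1 to 278 CPM without it, and FUM1 footprints at 278 to 306 and 229 to 253 CPM, each with no overlap over the 9 lysates. Those of IDH2 (484 to 722 and 339 to 493 CPM), ACO1 (1301 to 2325 and 810 to 1981 CPM) and CIT1 (314 to 536 and 238 to 493 CPM) overlapped. The share of all genes without overlap is not given here. All 3 genes of the methylcitrate cycle, PDH1, CIT3 and ICL2, had an unadjusted p under 0.05 by edgeR, and CIT3 and ICL2 did not pass. The ratio of means without TMA20 to with it was 0.766 in YPD and 0.424 in SD for CIT3, on 6 to 66 counts. For ICL2 it was 0.855 and 0.785. The 5 members of pyruvate dehydrogenase lay between -0.12 and 0.03.

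**Figure D4:**
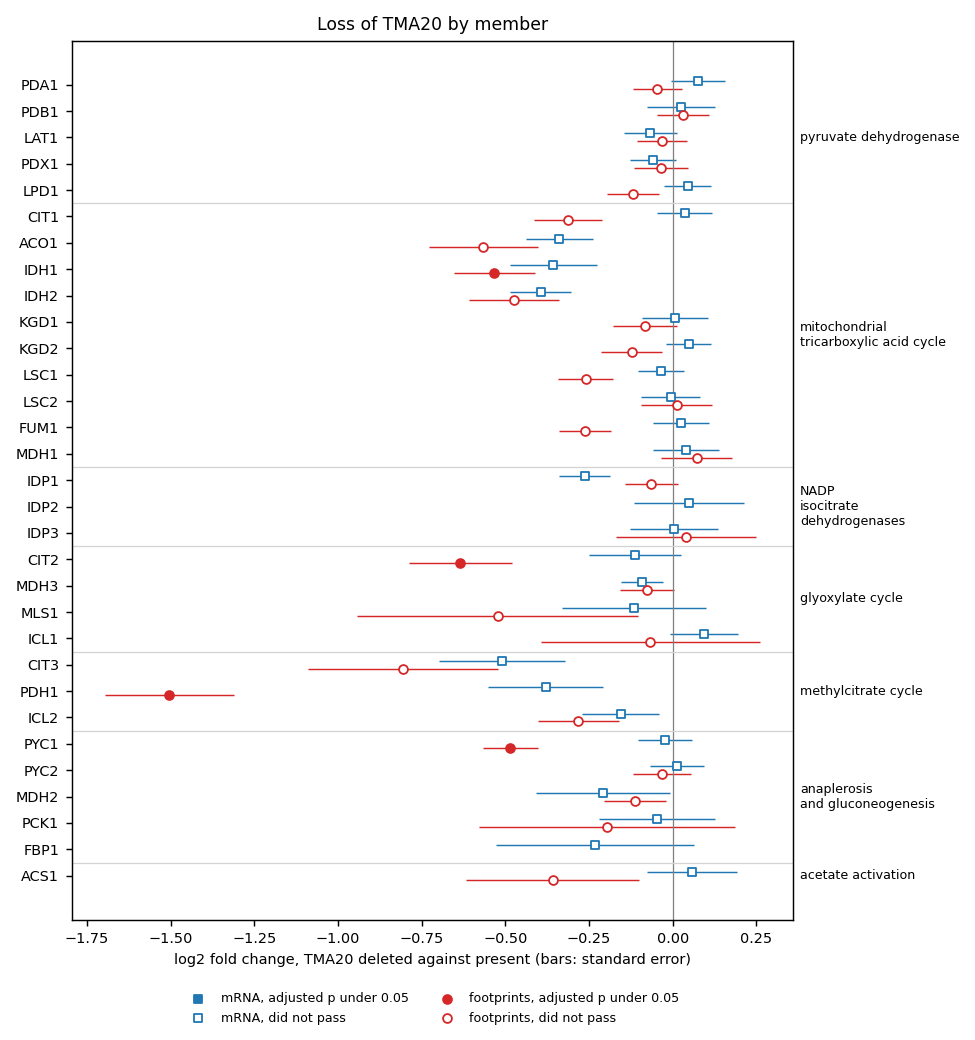
log2 fold change of lysates without TMA20 against those with it (x axis) for each member (y axis, grouped by role), with blue squares for mRNA and red circles for footprints, filled where the adjusted p was under 0.05, and bars for the standard error. The filled points are the footprints of IDH1, CIT2, PDH1 and PYC1, between -1.50 and -0.48, and pyruvate dehydrogenase lies near 0 in both assays.

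Translation efficiency gave no member that passed for the loss of TMA20 by edgeR, where 0.0674% of genes passed, 0.0168% higher and 0.0505% lower. An unadjusted p under 0.05 was found for 6 of 31 members and 7.06% of all genes, and the smallest adjusted p was 0.2097 for PYC1 (-0.47) and PDH1 (-1.11). DESeq2 called these 2 genes lower, and 0.337% of all genes in either direction. The replicate block gave 0 as well.

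As TMA20 acts in re-initiation, the bases before PYC1 and PDH1 were read for upstream ATG triplets. Within 100 bases before the start codon, 9 of 31 members (29.03%) and 52.1% of 6012 open reading frames had at least 1 ATG. PYC1 and PDH1 were among them, and CIT2 and IDH1 were not. The window was set from the start codon without use of transcript starts, so whether an ATG is in the mRNA is not known from it. The ATG is in capitals.
PYC1, ATG 64 bases before the start codon: ggaggtcttgagtATGtagataaacgaaaa
PDH1, ATG 81 bases before the start codon: taaatctgccataATGtatgtataacttat
They lie at chrVII:385119-385148 and chrXVI:558291-558320, both on the plus strand. A stop codon followed in frame after 1 codon for PYC1 and after 3 for PDH1, which had further ATG at 77 and 19 bases. PDA1, CIT3, IDH2, IDP1, IDP2, MLS1 and FBP1 also had an upstream ATG, and their footprint changes with the loss of TMA20, where tested, did not pass by edgeR. Of these, IDH2 was called lower by DESeq2, and CIT3 had an unadjusted p under 0.05 by edgeR. A link between these triplets and the footprint changes was not tested.

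The loss of TMA64 was compared over the 4 lysates of Δtma64 and ΔΔtma20tma64 and the other 5. No member passed in mRNA, footprints or translation efficiency by edgeR, and none by DESeq2. Over all genes 0.0168%, 0.0559% and 0.0168% were lower in the 3 tests and 0 were higher. At an unadjusted p under 0.05 there was 1 member in mRNA, against 2.23% of all genes, namely KGD2 (0.18, adjusted p = 0.9997, edgeR), and 0 in the other tests. In footprints the smallest unadjusted p was that of IDH1, 0.0521 by edgeR, at -0.25 (SE 0.118).

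Whether the effect of TMA20 loss differed between the media was tested as an interaction. No member passed in mRNA, where 0% of genes passed, 0 members had an unadjusted p under 0.05 and DESeq2 called 0. In footprints 0 passed, against 0.112% of genes (0.0373% higher and 0.0745% lower), with 4 members and 5.31% of all genes at an unadjusted p under 0.05 and 0 members called by DESeq2. These 4 were IDH2 (0.56), MDH1 (0.47), ACO1 (0.58) and IDH1 (0.45), with adjusted p of 0.734 to 0.893 by edgeR. All 10 genes of the mitochondrial cycle had a positive value. The means show what these values describe: ACO1 footprints without TMA20 were at 907 CPM in YPD and 1820 CPM in SD, and with TMA20 at 1609 and 2172 CPM. Whether the effect of TMA20 loss differed with the presence of TMA64 was tested in footprints. No member passed, against 0.149% of genes, 1 member, LSC2, and 8.59% of all genes had an unadjusted p under 0.05 (LSC2 0.43, adjusted p = 0.487, edgeR), and DESeq2 called 0. PDH1 gave -0.64 (adjusted p = 0.643, edgeR).

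Genes next to the members in these pathways were taken in 8 lists. For the medium, 14.3% of all genes were higher and 11.3% lower in footprints, and 14.1% and 11.9% in mRNA. Several counts of the lists lie near these shares, and the lists were not tested as sets. For the medium, 2 of 4 subunits of succinate dehydrogenase, the enzyme that completes the cycle, were higher in footprints, SDH1 by 0.47 (adjusted p = 0.00536, edgeR) and SDH2 by 0.44 (adjusted p = 0.00279), and both were higher in efficiency. Of the mitochondrial carriers 4 of 9 tested were higher in footprints and 0 lower. ODC2, which exports alpha-ketoglutarate and related acids, rose by 1.74 (adjusted p = 2.14e-08, edgeR), MPC3 and MPC2 of the pyruvate carrier by 1.08 and 0.66, and YHM2, a citrate carrier, by 0.47. ODC2 footprints were at 17.8 to 25.8 CPM in YPD and 69.6 to 86.5 CPM in SD, with no overlap, and its mRNA was not called.

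Of 5 genes of glutamate and ammonium assimilation, which draw on alpha-ketoglutarate, 2 were higher and 2 lower in footprints. The glutamate synthesis genes GDH1 (0.69, adjusted p = 0.000596, edgeR) and GLT1 (0.36) were higher. GLN1, glutamine synthetase, was lower in footprints (-0.79, adjusted p = 0.00103, edgeR) and in mRNA (-1.22), and GDH2, which breaks down glutamate, was lower in both (-0.33 and -0.45). GDH3 was lower in mRNA (-1.21) and higher in efficiency (1.23). GDH1 and GDH3 are close paralogs, and reads common to both were not examined here. Of 10 regulators of carbon source genes, 2 were higher in footprints, ADR1 (1.25, adjusted p = 3.93e-06, edgeR) and CAT8 (0.68), and 8 did not pass. ADR1 footprints were at 37.1 to 77.1 CPM in YPD and 119 to 142 CPM in SD.

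Of the retrograde list 2 of 5 were higher in footprints, the target DLD3 (0.59) and MKS1 (0.42), a negative regulator of the pathway, while RTG1, RTG2 and RTG3 did not pass. Of the list on control and lipoylation of pyruvate dehydrogenase 2 of 7 were higher, the phosphatase PTC6 (0.76) and LIP5 (0.40), lipoate synthase. Of 6 genes of acetate, ethanol and lactate use 1 was higher, the mitochondrial aldehyde dehydrogenase ALD4 (0.78, adjusted p = 9.80e-05, edgeR). In the list of isoenzymes outside the members the malic enzyme MAE1 was lower (-0.57). Without the 2 shallowest lysates GLN1, GDH2, CAT8, DLD3, MKS1 and MAE1 did not pass in footprints. In mRNA the lists gave 3 carriers higher and 2 lower, 3 of the glutamate list lower, 1 higher and 1 lower among the regulators and the control of pyruvate dehydrogenase each, 1 higher in the retrograde list and 0 in the other 3.

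For the loss of TMA20 these 8 lists held 1 gene that passed in footprints, where 3.95% of all genes passed. It was the carrier ODC1 (-0.77, adjusted p = 0.0167, edgeR), at 15.6 to 17.97 CPM with TMA20 and 7.39 to 13.5 CPM without it.

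RNA-Seq also showed reads on the strand opposite to the members. No member overlapped another open reading frame of the annotation. In 7 of 31 members (22.6%) more than 15% of the RNA-Seq reads on both strands lay on the opposite strand, against 21.3% of 6321 open reading frames with at least 100 reads. The 7 were genes of low mRNA level: FBP1 (89.9%), ICL1 (71.0%), CIT3 (51.9%), MLS1 (48.7%), ACS1 (33.2%), IDP3 (25.5%) and PCK1 (18.1%). ICL1 had 648 to 1534 opposite-strand counts per library in YPD and 400 to 577 in SD, against 164 to 445 counts on its own strand. Relative to depth, its opposite-strand level ranged from 37.1 to 134.7 CPM (without TMM scaling) over the 9 libraries.

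**Figure D5:**
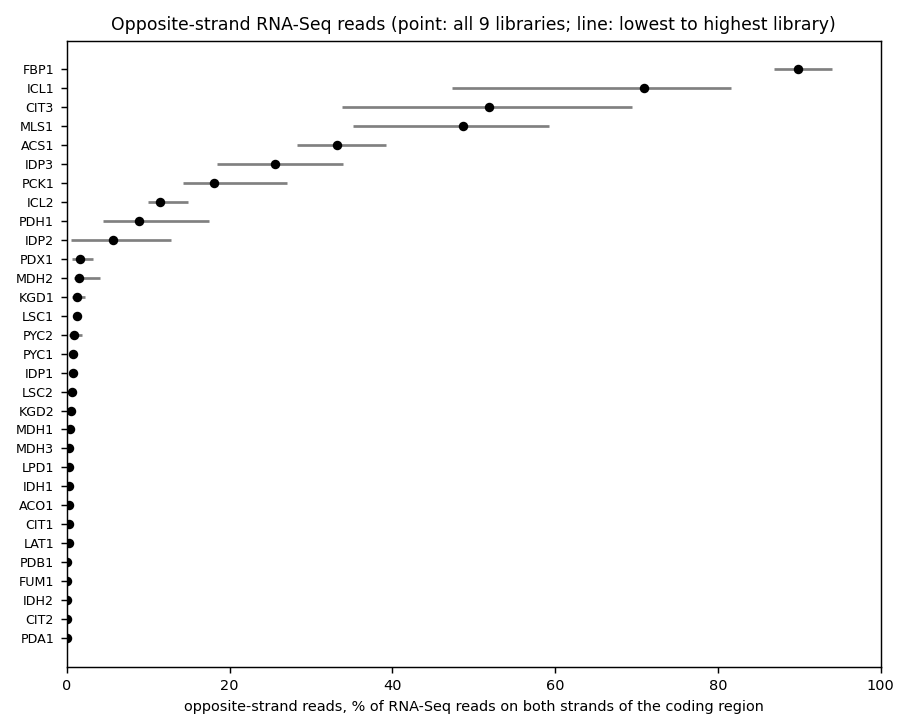
Share of RNA-Seq reads on the opposite strand (x axis, percent of the reads on both strands of the coding region) for the 31 members (y axis), with a point for all 9 libraries together and a line from the lowest to the highest library. FBP1 (89.9%), ICL1 (71.0%) and CIT3 (51.9%) stand above 50%, and 21 members lie below 2%.

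The values in the other comparisons use reads on the strand of the gene, so opposite-strand reads do not enter them. With unstranded counts, 9 members passed for the medium in mRNA, 10 in footprints and 5 in efficiency. The share of all genes with these counts is not given here. ICL1 was among them as lower in mRNA (-0.81, adjusted p = 0.000908, edgeR), while reads on its own strand gave 0.22. CIT3 was among them in efficiency (1.55, adjusted p = 0.00349, edgeR) and did not pass there with reads on its own strand.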

How the data were processed

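The deposited tables held whole-number counts of reads per open reading frame on each strand, made by the authors from trimmed reads (cutadapt 1.18) aligned with STAR 2.5.3a to the R64 (sacCer3) genome, per the methods and the submitters' processing notes. RNA-Seq and Ribo-Seq libraries were paired by lysate, since the methods take both from portions of the same lysate. As a check, the deviations of both assays from a fit of strain and medium correlated at 0.0177 to 0.316 within a lysate over 5032 genes. In 4 of 9 lysates one assay correlated more strongly with the other assay of another lysate. The YPD and SD deviations of a mutant mirror each other in such a fit, so the 9 lysates are not separate checks. The pairing thus rests on the methods and not on this check. Reads on no annotated gene of the counted strand made up a median of 23.6% of RNA-Seq and 1.09% of Ribo-Seq counts. These were left out, as were reads on annotated genes other than open reading frames, which these percentages do not include.

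Sense-strand counts were tested with edgeR 4.0.16 (R 4.3.3; quasi-likelihood, robust, TMM scaling, filterByExpr with a minimum count of 10) over all genes, with Benjamini-Hochberg adjustment and a threshold of 0.05. CPM are scaled by TMM with no prior count. The medium was tested with strain in the model, the loss of TMA20 and of TMA64 with each other and the medium, and translation efficiency as the interaction with assay over 18 libraries, in 12 comparisons in all. Single values were compared with an exact permutation test over lysates, which was not adjusted and took no account of strain or the other factor. The scripts were tested on simulated data. Windows of 500 bases before start codons and the last 30 coding bases were read from the R64 genome with Python 3.11.15.

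The members and gene lists were chosen with earlier results of these data known. Named were all members past the threshold, all isoenzyme families, the genes of the glyoxylate and methylcitrate cycles, gluconeogenesis and acetate use, and up to 4 genes of each neighbouring list with the smallest p. Exceptions, chosen after their values were seen, are members near the threshold for the loss of TMA20 and members with an unadjusted p under 0.05 in a comparison with no call. The alternatives were RLE scaling, library size alone, no filter, DESeq2 1.42.0, unstranded counts, each lysate left out, deletions in place of strain, each medium alone and the lysate as a block. Fits without the 2 shallowest Ribo-Seq lysates and on the wt lysates alone were added after seeing the data. Fits on the SD lysates alone had 1 lysate of each strain, and those on the wt lysates alone had 1 lysate in SD. Their p-values rest mainly on the spread shared over genes and are weak evidence. The result of 1 gene in a neighbouring list is not reported here.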

Additional observations from a re-analysis of the deposited data

Results flagged for a closer look

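In 7 of 124 groups of lysates of the same medium, the highest or lowest lysate stood far from the others by Dixon's test, and chance flags about 1 in 20 groups. In SD, ΔΔtma20tma64 had 440.7 CPM of CIT1 mRNA against 368.3 to 377.4 in the other lysates, 50.82 CPM of IDP2 mRNA against 33.01 to 34.85, and 321.4 CPM of IDH1 footprints against 472.1 to 480.6. The wt lysate in SD had 437.9 CPM of PYC2 footprints against 351.1 to 363.8. In YPD, WT1 had 39.83 CPM of IDP2 mRNA against 29.26 to 30.73, WT2 had 205.3 CPM of LSC2 mRNA against 187.9 to 192.6, and Δtma64 had 1.042 CPM of IDP2 footprints against 0.1271 to 0.3574, which rest on few counts.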

How the results depend on the processing

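Of 26 calls of members, 6 were kept in every alternative tried and none changed direction. These were PYC1 for the medium in mRNA and ACS1, PYC1, CIT1, MDH2 and PDH1 for the medium in footprints. Over 438 refits of the 26 calls, 329 kept the call and 109 lost it. For the medium in mRNA 8 members were called, 5 with library size alone, 2 in the wt lysates alone and 3 to 8 when 1 lysate was left out. In footprints 10 were called, 6 without the 2 shallowest lysates and 7 to 10 when 1 lysate was left out. In translation efficiency 4 were called, 2 with RLE scaling, 0 without the 2 shallowest lysates, 1 in the wt lysates alone and 1 to 6 when 1 lysate was left out. For the loss of TMA20, DESeq2 called 1 member in mRNA, 8 in footprints and 2 in efficiency where edgeR called 0, 4 and 0. The SD lysates alone gave 5 in mRNA, all lower (IDP1, ACO1, IDH2, CIT3 and PDH1), and in footprints the YPD lysates alone gave 1 and leaving out 1 lysate gave 2 to 5. For the loss of TMA64, 1 member, MDH2 (-0.40), was called in mRNA in the SD lysates alone. The cause of these differences was not tested, beside the smaller number of lysates where some were left out. Except for DESeq2, the share of all genes called in these fits is not given here. These counts thus describe the members only and cannot be set against all genes. Those of the SD lysates alone and of the wt lysates alone come from fits with little or no replication. The replicate block by lysate raised the members called for the medium in efficiency from 4 to 8, and those among all genes from 7.45% to 10.6%, and changed no other count of members. Footprints of ACS1, CIT3, MLS1, ICL1, PCK1, IDP2 and FBP1 are limited by depth.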
